A study of Mus musculus with 7 samples.

Results

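The germline V segments of the mouse immunoglobulin heavy chain were examined in 5 B-cell acute lymphoblastic leukaemia (B-ALL) libraries. The members are all entries whose deposited name starts with Ighv, 113 of 24726 entries in each table. A developing B cell joins 1 V, 1 D and 1 J segment of the heavy-chain locus by V(D)J recombination. It then transcribes the joined exon with the constant region, so its V transcript shows which V segment the cell and its descendants joined. Separate rearrangements of the same V segment are not told apart by it. Unrearranged V segments give low germline transcripts in B-cell progenitors. V segments fall into families by sequence likeness. In the mouse the families Ighv5 and Ighv2 lie nearest the D segments, whereas the large Ighv1 family and Ighv8 lie farthest away. Recombination of the distant segments is known to need the B-lineage factor Pax5, through contraction of the locus.

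All 5 libraries were made from polyadenylated RNA of C57BL/6 mice. In the 3 Pax5-Etv6 B-ALL libraries the genotype is Cdkn2ab+/-Pax5Etv6/+, meaning that 1 Pax5 allele carries the Pax5-Etv6 fusion and 1 copy of Cdkn2a-Cdkn2b is lost. Their RNA is from whole lymph node taken directly from the animal. The 2 control B-ALL libraries are Trp53-/- and NrasG12D/+ with Myc from a retrovirus, and their RNA is from whole bone marrow cultured for a short time. Genotype cannot be told apart from the tissue, the culture or the cDNA kit. Whether replicates are from different animals is not stated, so p-values measure only the spread between these samples. Whole reads recovered from the deposited TPM values (transcript abundance scaled to a fixed total per library) numbered 20294793 to 51421881 per library, of which 7005 to 13128 fell on Ighv entries.

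Markers were read as a check on the labels. Pax5, which marks the B lineage, ran from 200.2 to 252 TPM over the 5 libraries. Cd3e, which encodes an invariant chain of the T-cell receptor complex, stood at 0.193, 0.537 and 0.637 TPM in Pax5-Etv6 replicates 1, 2 and 3 and was listed at 0 in both controls. Counts of called markers stand beside 21.9% of all entries tested called higher, 29.7% lower and 51.7% either way (limma, adjusted p under 0.05). The defining T-cell marker Cd3e was near 0 in the tissue labelled lymph node. All 4 tested genes of the 9 on the T-cell list were called higher, and the list summed to 188 to 499 TPM against 7.36 to 12.8 TPM, most of it from the kinase gene Lck (181 to 465 TPM against 6.8 to 11.9 TPM). Fcer2a and Cr2, receptors of resting mature B cells, had at most 0.938 and 0.674 TPM. The mature B-cell list summed to 194 to 910 TPM against 299.5 to 301 TPM, with 1 of 7 tested genes called higher and none lower. That gene was Cxcr5, at 70.9, 67.6 and 151 TPM against 0.68 and 1.5 TPM (limma adjusted p = 0.000508). Cd22 had 184, 38.1 and 22.1 TPM against 118 and 169 TPM, and Ccr7 151, 42.0 and 37.0 TPM against 33.5 and 68.1 TPM. Ms4a1, the CD20 antigen of more mature B cells, stood at 225, 20.6 and 6.6 TPM in Pax5-Etv6 replicates 1, 2 and 3 and at 1.66 and 3.81 TPM in the controls. Igj, the joining chain of secreted antibody in plasma cells, had 10.5, 1.73 and 3.08 TPM against 0.183 and 0.0389 TPM, and Tnfrsf17, a receptor of plasma cells, had at most 0.533 TPM in any library. Of 7 tested plasma-cell genes 4 were called higher and 2 lower. Prdm1 had 4.27, 32.1 and 43.3 TPM against 0.346 and 0.238 TPM, and was called higher like Igj, Xbp1 and Mzb1. Xbp1 had 127, 170 and 276 TPM against 41.9 and 36.2 TPM. Irf4 and Slamf7 were called lower. The plasma-cell list summed to 1923 to 2411 TPM against 1549 to 1557 TPM. Most of it came from Mzb1 (1543 to 1894 TPM against 846 to 930 TPM). Of 9 tested genes on the B-progenitor list, 3 were called higher and 2 lower. The list summed to 1022 to 4034 TPM against 787 to 964 TPM. Igll1, Vpreb1 and Vpreb2 were called higher, and Igll1 had 202, 1715 and 1709 TPM against 23.9 and 10.3 TPM. Enpep, called lower with Dntt, had 0.0219, 0.235 and 0.163 TPM against 88.0 and 34.6 TPM. Macrophage genes summed to 149 to 463 TPM against 23.7 to 62.0 TPM, with 4 of 7 called higher. Of the 4 erythroid genes, the globin genes Hba-a1 and Hbb-b1 were listed at 0 throughout. Whether globin transcripts were absent or not counted was not tested. Alas2, an enzyme of haem synthesis in red-cell precursors, had 73.7, 11.3 and 22.6 TPM against 0.583 and 0.372 TPM. It was called higher (limma adjusted p = 0.00426). The part of these cells in the Ighv values was not tested.

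Each Pax5-Etv6 leukaemia had a single dominant V segment, and it was a different one in each library. Ighv2-2 had 2853 TPM in replicate 1, which was 94.5% of the summed Ighv TPM there. Ighv3-8 had 2111 TPM in replicate 2, or 95.1%. Ighv5-6 had 2733 TPM in replicate 3, or 96.3%. These segments held places 35, 46 and 32 among all entries of their libraries, and each was 71.3 to 102 times as high as the next Ighv entry. Counted as reads, the shares were 94.5% (95% Wilson interval 94.1 to 94.9%) of 11448 reads, 95.02% (94.5 to 95.5%) of 7005 and 96.4% (96.0 to 96.7%) of 13128. PCR duplicates cannot be recognised here, and the intervals hold only the error of counting.

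In the control leukaemias the Ighv TPM was spread over several segments. In control replicate 1, Ighv3-1 had 770 TPM (49.7% of summed Ighv TPM) and Ighv1-26 had 434 TPM (28.0%). Ighv5-4 followed with 92.6 TPM (5.98%). In control replicate 2, Ighv5-17 had 1126 TPM (50.2%), ahead of Ighv5-6 with 318 TPM (14.2%), Ighv5-12 with 245 TPM (10.9%) and Ighv2-2 with 180 TPM (8.01%). The controls thus also differed from each other in their leading segment. Both had 7 segments with at least 1% of summed Ighv TPM, whereas the Pax5-Etv6 libraries had 1, 2 and 2.

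**Figure D1:**
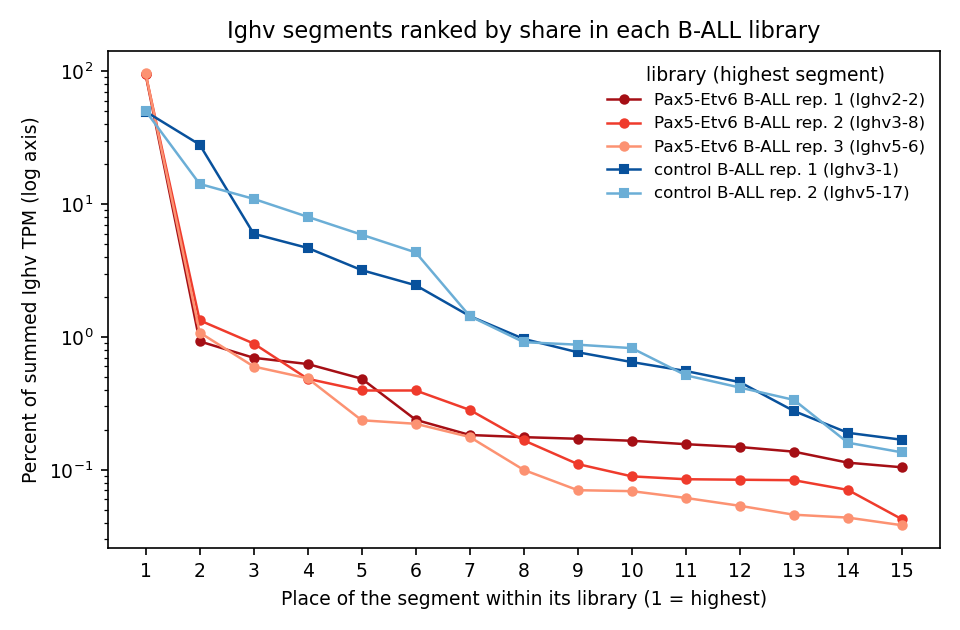
Share of summed Ighv TPM (percent, log axis) against the place of the segment within its library, for the 15 highest segments of each of the 5 libraries, each library drawn as a line with its highest segment named in the key. The 3 Pax5-Etv6 libraries drop from over 94% to below 1.4% between the first and the second place, while the 2 controls descend from about 50% over several segments.

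Measures of clonality, read from V segment shares alone, separated the groups without overlap. However, 3 against 2 libraries cannot give a two-sided exact permutation p below 0.2. The highest segment held 95.3% ± 0.936 (SD, n = 3) of summed Ighv TPM in Pax5-Etv6 B-ALL and 50.0% ± 0.341 (SD, n = 2) in control B-ALL, a difference of 45.3 percentage points (exact permutation p = 0.2). A cell has a pair of heavy-chain alleles and can carry a rearrangement on each, so the sum of the leading pair of segments was read too. It was 95.4%, 96.4% and 97.4% in Pax5-Etv6 B-ALL and 77.7% and 64.4% in the controls (difference 25.3 percentage points, exact permutation p = 0.2). The effective number of segments, the inverse Simpson index, is 1 when a single segment holds all transcripts. It was 1.12, 1.11 and 1.08 in Pax5-Etv6 B-ALL against 3.00 and 3.38 in the controls (difference -2.09, exact permutation p = 0.2). The controls needed 7 and 8 segments to reach 95% of summed Ighv TPM, and the Pax5-Etv6 libraries 2, 1 and 1.

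The summed TPM of all V segments overlapped between the groups. It was 3020, 2221 and 2838 TPM in Pax5-Etv6 replicates 1, 2 and 3 and 1550 and 2243 TPM in control replicates 1 and 2. Pax5-Etv6 replicate 2 lay below control replicate 2 (mean difference 0.52 on the log2 scale, exact permutation p = 0.4). As a share of all recovered reads, Ighv reads did not overlap between the groups. They were 0.0487%, 0.0345% and 0.0432% in Pax5-Etv6 B-ALL and 0.0202% and 0.0331% in the controls. On this scale the mean log2 difference was 0.69 (exact permutation p = 0.2). In whole tissue, fewer cells of a type and less RNA per cell cannot be told apart. Outside the highest segment, the remaining Ighv entries summed to 167, 110 and 105 TPM in Pax5-Etv6 B-ALL and to 779 and 1117 TPM in the controls, with no overlap.

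Most V segments had no read or few reads. An entry without a read need not be silent, since how reads of like sequences were handled is not given. Of the 113 entries, 35 had no read in any of the 5 libraries, 78 had a read in at least 1 library and 10 in all. The number of entries above 0 was 50, 34 and 45 in the Pax5-Etv6 libraries and 33 and 36 in the controls, of which 9, 11, 16, 10 and 8 rested on 1 read. By the error of counting alone, a segment without a read can hold up to 3 reads of the total. That is 0.0262%, 0.0428% and 0.0229% of Ighv reads in Pax5-Etv6 replicates 1, 2 and 3, and 0.0288% and 0.0313% in the controls. The 35 entries without a read included 23 of the Ighv1 family. RefSeq names 7 of the 113 entries as pseudogenes, and these held at most 0.617% of summed Ighv TPM in any library.

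**Figure D2:**
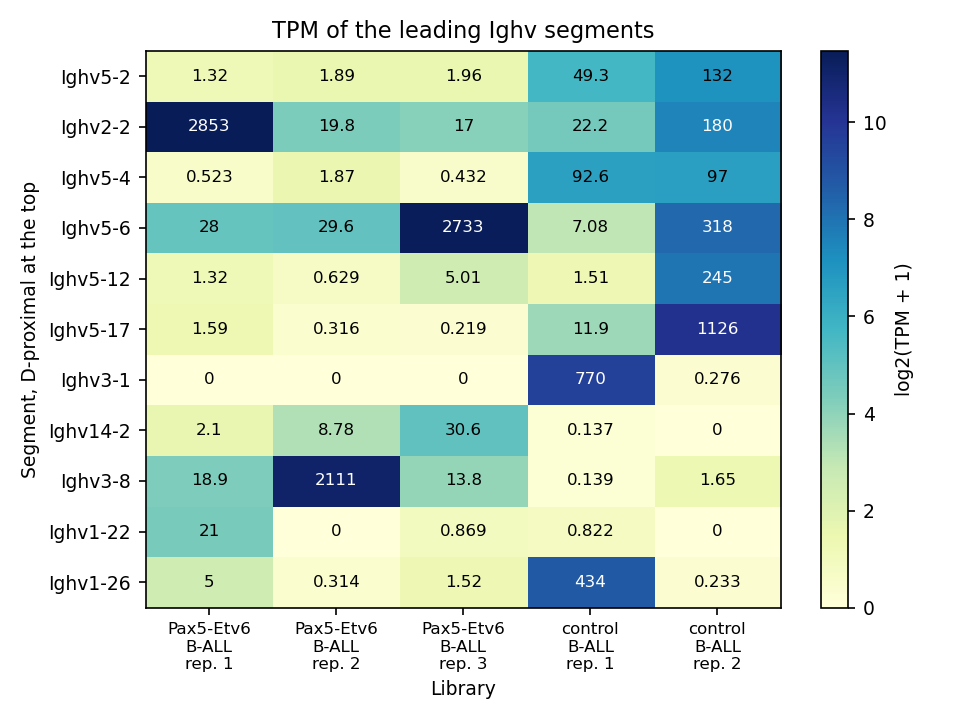
TPM of the 11 leading segments (rows, ordered from the D-proximal end) in each library (columns), coloured by log2(TPM + 1) with the TPM printed. Each Pax5-Etv6 library has a single dark cell above 2000 TPM in a different row, and the controls have several cells between 49.3 and 1126 TPM.

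V family use followed the dominant segments. Ighv2 held 95.2% of summed Ighv TPM in Pax5-Etv6 replicate 1, Ighv3 held 95.1% in replicate 2 and Ighv5 held 96.9% in replicate 3. Control replicate 1 was spread over Ighv3 (49.9%), Ighv1 (28.4%) and Ighv5 (11.1%), and control replicate 2 held 87.9% in Ighv5 and 10.3% in Ighv2. The Ighv1 family has 56 of the 113 entries and held 1.78%, 0.471% and 0.611% in the Pax5-Etv6 libraries and 28.4% and 0.0559% in the controls. The group difference of -13.3 percentage points rests on Ighv1-26 in control replicate 1 (exact permutation p = 0.8). Without that library the difference was 0.899 in the other direction. Ighv8, the other distant family with 8 entries, stayed at or below 0.0618% in every library. A segment of another family led each library, so these shares of Ighv1 and Ighv8 were bounded by that segment. With the highest segment of each library set aside, Ighv1 held 32.2%, 9.55% and 16.5% of the remaining Ighv TPM in Pax5-Etv6 replicates 1, 2 and 3. In control replicates 1 and 2 it held 56.4% and 0.112%.

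**Figure D3:**
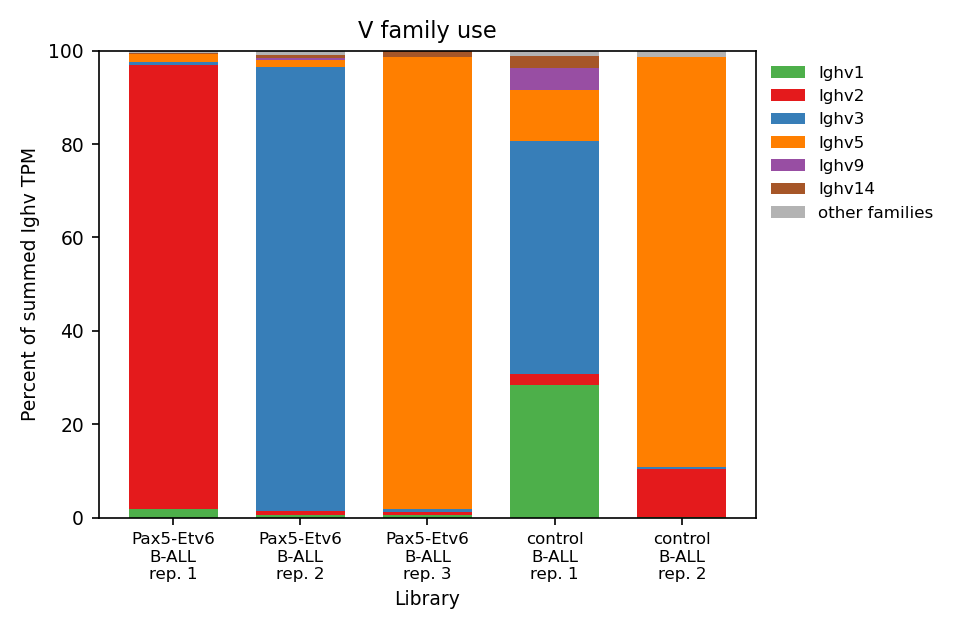
Stacked shares of summed Ighv TPM (percent, linear axis) by V family in each of the 5 libraries. Each Pax5-Etv6 bar is filled to over 95% by a different family (Ighv2, Ighv3 and Ighv5), and control replicate 1 is divided among Ighv3, Ighv1 and Ighv5.

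The highest segment of each library lay at places 1 to 45 from the D-proximal end, except Ighv3-8 of Pax5-Etv6 replicate 2. In that library places 46 to 91 held 96.5% of summed Ighv TPM and places 1 to 45 held 3.02%. All 113 entries matched a RefSeq name on chromosome 12, where RefSeq (GRCm38.p6) lists 183 V segments. The remaining segments of that list were not analysed here. The deposited tables use mm9, so RefSeq served only for names and for the order of neighbouring segments. Counted from the D-proximal end, Ighv2-2 is at place 4, Ighv5-6 at place 10, Ighv5-17 at place 28, Ighv3-1 at place 37, Ighv3-8 at place 63 and Ighv1-26 at place 106. The 33 entries at places 138 to 183, the most distant, held 0.34%, 0.161% and 0.152% of summed Ighv TPM in Pax5-Etv6 replicates 1, 2 and 3 and 0.209% and 0.0104% in control replicates 1 and 2. In Pax5-Etv6 B-ALL, 8, 5 and 12 of these 33 had a read, against 3 and 1 in the controls. None of them exceeded 3.42 TPM in any library.

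With the highest segment of each library set aside, the place of the remaining V transcripts varied between libraries. The 30 entries at places 1 to 45 held 50.8%, 61.2% and 65.7% of the remaining Ighv TPM in Pax5-Etv6 replicates 1, 2 and 3, 33.8% in control replicate 1 and 97.0% in control replicate 2. In control replicate 1, places 92 to 137 held 56.1% of the remainder, nearly all of it from Ighv1-26. Part of the Pax5-Etv6 remainder was the dominant segments of the other libraries. With the highest segments of all 5 libraries set aside everywhere, a choice made after seeing the data, places 1 to 45 held 46.6%, 28.8% and 70.1% in Pax5-Etv6 replicates 1, 2 and 3 and 30.1% and 94.9% in the controls. Pax5-Etv6 replicate 2 moved most. These shares are descriptions that rest on few reads in the Pax5-Etv6 libraries, and they overlapped between the groups.

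**Figure D4:**
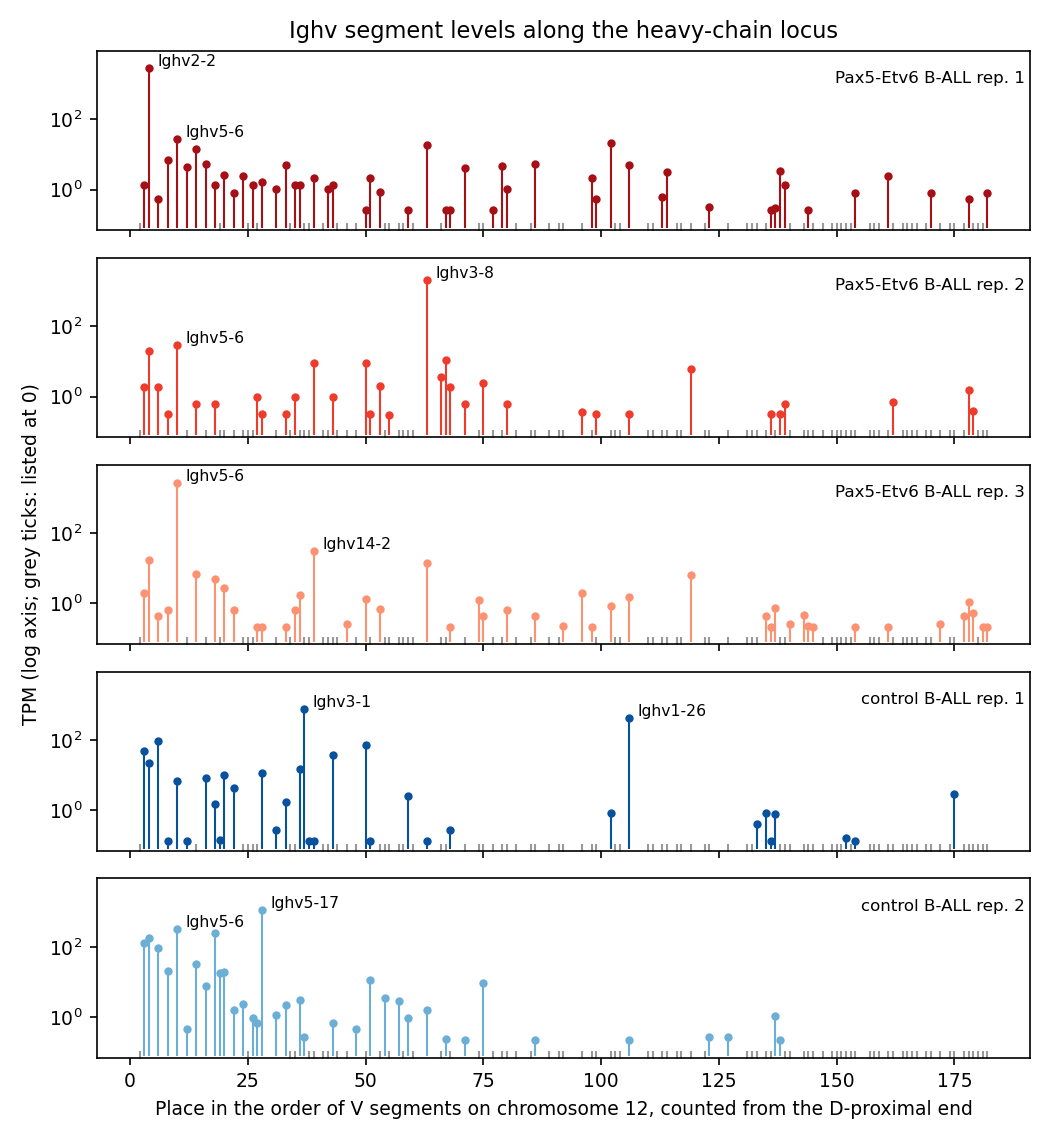
TPM of each Ighv entry (log axis; grey ticks mark entries listed at 0) against its place in the order of V segments on chromosome 12, counted from the D-proximal end, with 1 panel for each of the 5 libraries and the leading pair of segments named. Levels above 100 TPM lie at places 3 to 63 except Ighv1-26 at place 106 in control replicate 1.

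Few V segments differed between the groups as such. Of the 113 entries, 24 reached 1 TPM in at least 2 libraries and were tested. With limma on log2(TPM + 1) and Benjamini-Hochberg adjustment over all 11805 entries tested, 2 were called higher and 6 lower in Pax5-Etv6 B-ALL at an adjusted p under 0.05, and 16 were not called. Of all entries tested, 21.9% were called higher, 29.7% lower and 51.7% either way. The median log2 fold change of the 24 was -1.08, beside -0.11 over all entries tested. The members' counts of 2 and 6 of 24 were thus below the background. The groups did not overlap in 10 of the 24, beside 72.2% of all entries tested, and all 3 Pax5-Etv6 libraries lay below both controls in 7, beside 40.1%. A segment that passed the filter only through its controls had to be lower, and one that passed only through the Pax5-Etv6 libraries had to be higher, so these counts support nothing about the segments as a set.

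Ighv5-4 and Ighv5-2, a pair of D-proximal segments at places 6 and 3, had the lowest adjusted p of the members. Ighv5-4 reached 1 TPM in only 1 Pax5-Etv6 library and needed its controls to pass the filter. Both segments were also called with no filter (limma adjusted p = 0.00273 and 0.00378). Ighv5-4 had 0.523, 1.87 and 0.432 TPM in Pax5-Etv6 B-ALL and 92.6 and 97.0 TPM in the controls (log2 fold change -5.70 ± 0.37 SE, limma adjusted p = 0.000391). Ighv5-2, the most D-proximal of the tested segments, had 1.32, 1.89 and 1.96 TPM against 49.3 and 132 TPM (-4.92 ± 0.43, limma adjusted p = 0.000651). In both, the groups were far apart and both controls were high, although neither segment led a control library.

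Ighv5-17, the leading segment of control replicate 2, had 1.59, 0.316 and 0.219 TPM in Pax5-Etv6 B-ALL and 11.9 and 1126 TPM in the controls (-6.23 ± 1.69, limma adjusted p = 0.0222). Among the Pax5-Etv6 libraries only replicate 1 reached 1 TPM, so Ighv5-17 needed its controls to pass the filter. The controls lay far apart in this segment, and its log2 fold change was -9.45 without control replicate 1 and -3.00 without control replicate 2. The call was lost with voom on recovered reads (limma adjusted p = 0.232), a pseudocount of 5 TPM (0.0511) and no filter (0.0609). Ighv5-9-1 had 2.64, 0 and 2.83 TPM against 10.0 and 19.6 TPM (-2.65 ± 0.66, limma adjusted p = 0.0162). It was not called without control replicate 1 (limma adjusted p = 0.0656) or 2 (0.114), or with a pseudocount of 0.1 TPM (0.0648). The other calls lower, Ighv2-9-1 and Ighv4-1, were named after their values were seen and reached at most 4.29 and 14.97 TPM in any library. Of this pair, Ighv2-9-1 (0.798, 0 and 0.659 TPM in Pax5-Etv6 B-ALL) passed the filter only through its controls, so its direction was set by the filter. Ighv4-1 did not depend on its controls in this way. Each lost its call in at least 5 alternatives, Ighv2-9-1 without Pax5-Etv6 replicate 2 (limma adjusted p = 0.0742) or 3 (0.0594) and Ighv4-1 without Pax5-Etv6 replicate 2 (0.077) or control replicate 1 (0.297).

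Of the 2 segments called higher, both passed the filter only through the Pax5-Etv6 libraries, so their direction was set by the filter. Ighv14-2 had 2.1, 8.78 and 30.6 TPM in Pax5-Etv6 replicates 1, 2 and 3 and 0.137 and 0 TPM in the controls (3.21 ± 0.89, limma adjusted p = 0.0242). It was the second segment of replicate 3, with 1.08% of its summed Ighv TPM. The call was lost without control replicate 1 (limma adjusted p = 0.127) or 2 (0.117), with a pseudocount of 5 TPM (0.0749) and with no filter (0.0652). Ighv1-81 was called at 0.526, 1.57 and 1.09 TPM, which rest on 2, 5 and 5 reads, against no read in the controls (limma adjusted p = 0.0414). It too was not called without control replicate 1 (limma adjusted p = 0.225) or 2 (0.197), or with a pseudocount of 5 TPM (0.0907).

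None of the 3 segments that dominated a Pax5-Etv6 leukaemia passed the test between the groups. Ighv2-2 had 2853, 19.8 and 17.0 TPM in Pax5-Etv6 B-ALL and 22.2 and 180 TPM in the controls (0.66 ± 2.25, limma adjusted p = 0.821). Ighv5-6 had 28.0, 29.6 and 2733 TPM against 7.08 and 318 TPM (1.405 ± 2.35, limma adjusted p = 0.638). In both, the controls lay within the range of the Pax5-Etv6 libraries. Ighv3-8 had 18.9, 2111 and 13.8 TPM against 0.139 and 1.65 TPM (5.62 ± 2.08, limma adjusted p = 0.0607). All 3 Pax5-Etv6 libraries lay above both controls, and the log2 fold change was 3.31 without replicate 2, the library it dominates. Ighv3-8 was called without Pax5-Etv6 replicate 1, 2 or 3 (limma adjusted p = 0.0319, 0.00411 and 0.0386), and with a pseudocount of 0.1 TPM (0.0362). In the other 8 of 12 alternatives it stayed uncalled. Among these were the unfiltered fit (limma adjusted p = 0.130), voom on recovered reads (0.255) and the larger pseudocount, 5 TPM (0.131).

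Of the leading control segments, Ighv1-26 had 5.00, 0.314 and 1.52 TPM in Pax5-Etv6 B-ALL against 434 and 0.233 TPM (-3.10 ± 2.24, limma adjusted p = 0.28). Without control replicate 2 it was called (-7.33, limma adjusted p = 0.00532), a fit in which the lone control is assumed to vary like the other group. Ighv5-12 had 1.32, 0.629 and 5.01 TPM against 1.51 and 245 TPM (-3.13 ± 1.77, limma adjusted p = 0.178), and was called without control replicate 1 (0.0113). Ighv3-1, listed at 0 in all 3 Pax5-Etv6 libraries and at 770 and 0.276 TPM in the controls, did not reach 1 TPM in 2 libraries and was not tested.

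Each dominant segment of the Pax5-Etv6 group reappeared at a low and similar level in the other libraries of that group. Ighv2-2 of replicate 1 was the third segment of replicates 2 and 3, at 0.695% and 0.596% of its level in replicate 1. Ighv3-8 of replicate 2 was the fourth segment of replicates 1 and 3, at 0.895% and 0.656% of its own level. Ighv5-6 of replicate 3 was the second segment of replicates 1 and 2, at 1.02% and 1.08%. The 6 values thus ran from 0.596% to 1.08%. In the controls Ighv3-8 stood at 0.00656% and 0.0781% of its level in replicate 2, whereas Ighv2-2 (0.78% and 6.30%) and Ighv5-6 (0.259% and 11.6%) did not stand lower there in both libraries. Ighv5-17 of control replicate 2 was at 1.06% in control replicate 1, and Ighv3-1 of control replicate 1 was at 0.0358% in control replicate 2. The cause was not tested.

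The immunoglobulin kappa V segments, which join in the light-chain locus after the heavy chain, gave the same kind of values. The highest kappa segments of Pax5-Etv6 replicates 1, 2 and 3 were Igkv4-55 (2726 TPM), Igkv3-9 (1377 TPM) and Igkv3-12 (577 TPM). In the other Pax5-Etv6 libraries they stood at 0.501% to 1.56% of their own level. The highest kappa segment held a smaller share than the highest heavy-chain segment in each of the 5 libraries, but the leading kappa pair of Pax5-Etv6 replicate 1 held 95.8%, no less than its heavy-chain pair. The highest held 56.6%, 89.7% and 72.9% of summed Igkv TPM in Pax5-Etv6 B-ALL and 48.0% and 36.2% in the controls. Among entries outside the immunoglobulin loci with at least 300 TPM in a Pax5-Etv6 library, none was below 1% of that level in another Pax5-Etv6 library. The lowest was Smoc1, at 318 TPM in replicate 3 and 10.4 TPM in replicate 1 (3.27%).

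**Figure D5:**
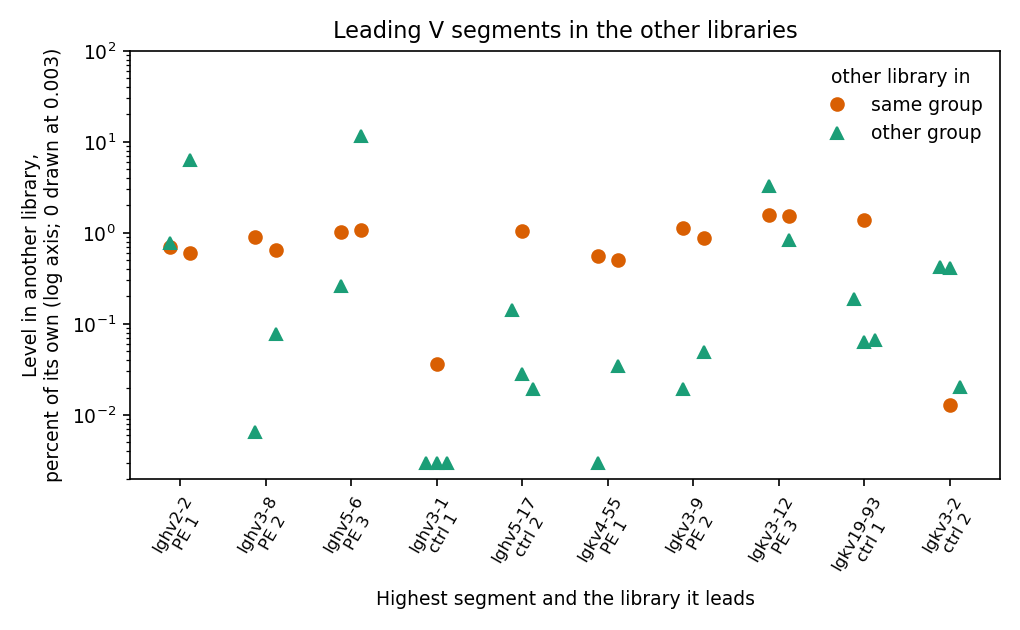
Level of each library's highest heavy-chain (Ighv) and kappa (Igkv) segment in every other library, as a percent of its level where it leads (log axis; values of 0 are drawn at 0.003), with circles for libraries of the same group and triangles for the other group. The circles of the 3 Pax5-Etv6 heavy-chain segments lie between 0.596% and 1.08%, and their triangles spread from 0.00656% to 11.6%.

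Relatives of the dominant segment were read within each library, since reads of like sequences may be assigned to the wrong entry and how the authors handled them is not given. In Pax5-Etv6 replicate 1 the other 9 Ighv2 entries summed to 21.3 TPM, 0.746% of Ighv2-2. In replicate 2 the other 5 Ighv3 entries had no read. In replicate 3 the other 8 Ighv5 entries summed to 17.4 TPM, 0.636% of Ighv5-6. In control replicate 1 the relatives of Ighv3-1 stood at 0.357% of it. In control replicate 2 the other 8 Ighv5 entries summed to 845 TPM, 75.1% of Ighv5-17. Its Ighv5 members therefore stood far higher beside the leading segment than those of Pax5-Etv6 replicate 3. Values of single Ighv5 members are uncertain to the extent that reads are shared.

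J segments, which lie between D and the constant genes, varied by library as well. Ighj3 had 563 TPM in Pax5-Etv6 replicate 1, 84.6% of the TPM of the 4 J entries there. In replicate 2 Ighj1, Ighj3 and Ighj2 held 33.5%, 33.0% and 19.7%, and in replicate 3 Ighj2, Ighj3 and Ighj4 held 34.9%, 33.9% and 30.6%. Ighj3 led both controls, with 60.8% and 62.3%. In Pax5-Etv6 replicates 2 and 3 no J entry held more than 34.9% of the J TPM. Whether the J reads come from the joined J segment was not tested. The J entries are short, with 1 to 293 reads each where detected. Of 20 D entries 16 had no read, and Ighd1-1 had 32.1, 4.79 and 13.3 TPM against 73.1 and 78.2 TPM. Ighg2c, the constant region of a switched isotype, had 1 read in a single library. The constant-region entry Ighm was not analysed here.

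Factors that act on V recombination and transcription were read from a list of 17 genes, of which 4 were called higher, 2 lower and 11 not (median log2 fold change 0.09, beside -0.11 over all entries tested). The share called higher was near the 21.9% of all entries and the share called lower was under their 29.7%. Ebf1, a B-lineage factor that opens the locus, had 260, 369 and 366 TPM against 137 and 151 TPM (1.18 ± 0.19, limma adjusted p = 0.00396). Tcf3, the E protein E2A, rose by 0.81 ± 0.19 (limma adjusted p = 0.014). Stat5a and Stat5b, which carry the interleukin-7 signal, rose by 0.89 ± 0.17 and 0.47 ± 0.15 (limma adjusted p = 0.00671 and 0.0417). Rad21, a cohesin subunit of chromatin loops, fell by 0.48 (limma adjusted p = 0.0347). Dntt, the enzyme that adds bases at V(D)J joints, had 0.26, 1.19 and 0.501 TPM against 12.9 and 1.88 TPM (-1.98 ± 0.67, limma adjusted p = 0.0463). Pax5 stood at 251, 203 and 208 TPM against 200 and 252 TPM and was not called (limma adjusted p = 0.882), nor were Yy1 (0.243), Ctcf (0.653) and the octamer co-activator Pou2af1 (0.514). In Pax5-Etv6 B-ALL reads of the intact and the fused Pax5 allele were not separated, so this value does not give the level of intact Pax5. Rag1, of the recombinase, had 12.2, 124 and 180 TPM against 22.3 and 22.3 TPM, so that it was lowest in Pax5-Etv6 replicate 1 (limma adjusted p = 0.261). Rag2, also of the recombinase, went the other way, with 0.544, 5.71 and 5.98 TPM against 17.1 and 9.27 TPM. It was not called (-1.71 ± 0.71, limma adjusted p = 0.084).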

How the data were processed

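Polyadenylated RNA was measured in 3 Pax5-Etv6 and 2 control B-ALL libraries, grouped by genotype and numbered in accession order. The authors deposited TPM per entry, 1 table per library, per the file headers. Per the submitters' processing notes, the tools included HTSeq 0.5.3 and DESeq2 1.4.1 and the build was mm9, with no role given. The labels call the Pax5-Etv6 libraries strand-specific and leave this blank for the controls.

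All 18048 entries above 0 were whole-number multiples of 1 read over a whole entry length, within 1e-10. The recovered lengths of 67 Ighv entries ran from 291 to 360 bases, and 11 with few reads were set to the smallest multiple of at least 290. Reads and totals are lower bounds. A share is an entry's TPM over the library's summed Ighv TPM. Entries with at least 1 TPM in at least 2 libraries were tested with limma 3.58.1 in R 4.3.3 (lmFit, eBayes with trend) on log2(TPM + 1), which understates the change of low entries. The fit was tested on simulated data, where false calls were more frequent than the threshold allows, most of them among entries with low TPM. Single values per library were compared by exact two-sided permutation over 10 splits.

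Named segments were the 3 highest of each library, those with at least 5% of a library's Ighv TPM and up to 4 called per direction. Members and lists were chosen with earlier results of these data known. Alternatives were other pseudocounts, filters and scalings, voom, shares of reads, a 1 TPM minimum and leaving out each library. RefSeq sequence tables held 0 Ighv promoters, so no sequence is shown. The chromatin samples were not analysed here.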

Additional observations from a re-analysis of the deposited data

How the results depend on the processing

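No paired analysis was made, because the groups differ in genotype and the labels link no Pax5-Etv6 library to a control library. Of 35 alternatives for the 5 differences in level, clonality and Ighv1 share, 34 kept the direction, and all p-values stayed above 0.05, which this design cannot pass. The exception was the Ighv1 share without control replicate 1 (0.899 percentage points). Leaving out each library gave 44.8 to 45.7 percentage points for the top segment share, 18.7 to 32.0 for the leading pair, -2.27 to -1.90 for the effective number and -27.4 to 0.899 for Ighv1. The count of Ighv entries called higher (2) was 0 with a pseudocount of 5 TPM, 4 with no filter, 1 with a filter of 5 TPM and 0 to 4 when libraries were left out, with 0 without either control. The count called lower (6) was 3 with a pseudocount of 0.1 TPM and 4 to 8 when libraries were left out. Over all entries, leaving out libraries gave 1410 to 2984 higher and 1954 to 3350 lower, both lowest without control replicate 1. Ighv5-4 and Ighv5-2 were called in all 12 alternatives. Signs turned in segments that were not called: Ighv2-2 without Pax5-Etv6 replicate 1 (-1.74) or control replicate 1 (-0.82), Ighv5-6 without Pax5-Etv6 replicate 3 (-0.77) or control replicate 1 (-1.25), Ighv1-26 without control replicate 1 (1.14) and Ighv5-12 without control replicate 2 (0.17). Leaving out each library gave -1.74 to 2.14 for Ighv2-2, -1.25 to 4.06 for Ighv5-6, -7.33 to 1.14 for Ighv1-26 and -6.44 to 0.17 for Ighv5-12. The cause was not tested. All Ighv names carry the same tag, so the alternative without tagged entries left none and was not run. Segments with few reads limit the calls at low TPM.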

Other observations

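Low segments that several Pax5-Etv6 libraries shared were not limited to the dominant ones. Ighv1-39 had 6.27 and 6.30 TPM in Pax5-Etv6 replicates 2 and 3, from 20 and 29 reads, and no read in Pax5-Etv6 replicate 1 or in either control (limma adjusted p = 0.112). Ighv1-22, in contrast, stood out in a single library. It had 21.0 TPM in Pax5-Etv6 replicate 1, the third segment there, and at most 0.869 TPM in any other library. Ighv1-39 was chosen after its values were seen.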
